A study of Mus musculus with 8 samples.

Results

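The thioredoxin and peroxiredoxin system was followed through 10 genes, chosen by symbol: Txn1, Txn2, Txnrd1, Txnrd2, Prdx1, Prdx2, Prdx3, Prdx5, Prdx6 and Srxn1. All 10 were among the 12367 genes of the expression table, and all 10 passed the filter on low values. Sequencing was of polyadenylated RNA of alveolar macrophages, which reside in the lung's air spaces, sorted as CD45+ F4/80+ CD11c+ cells from the lungs of untreated mice of 3 weeks. The control mice were Tfam-fl/fl without a Cre (WT), and the experimental mice were CD11c-Cre Tfam-fl/fl (KO), in which the CD11c promoter, active also in other CD11c+ cells, drives the recombinase. All mice thus carried floxed Tfam, the gene whose protein packages and transcribes the DNA of mitochondria. Mice with the Cre but unfloxed Tfam were not analysed here. Each genotype had 4 libraries, each from a pool of 3 to 5 male and/or female mice.

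Thioredoxins are small proteins that reduce disulfides in other proteins through a pair of cysteines. Thioredoxin reductases, which are selenoproteins, restore them with electrons from NADPH. Peroxiredoxins remove hydrogen peroxide with a reactive cysteine, and most of them are then reduced by thioredoxin. When this cysteine is oxidised too far, sulfiredoxin (Srxn1) repairs it. The system exists in parallel sets. Txn1, Txnrd1, Srxn1, Prdx1, Prdx2 and Prdx6 encode mainly cytosolic proteins. Txn2, Txnrd2 and Prdx3 encode mitochondrial proteins, and Prdx5 encodes a protein of mitochondria that is also found in peroxisomes and cytosol. Several of the cytosolic genes are known targets of NRF2, the transcription factor of the antioxidant response.

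Promoter sequence is shown for 3 of the genes that rose in KO, because the stretches hold the letters of the core of the element that NRF2 binds (Txnrd1 and Prdx1) or of a variant of it (Srxn1). RefSeq windows (build GRCm38.p6, 250 bases before to 50 bases after an annotated start) were found for 9 of the 10 genes, 11 windows in all, with 3 starts for Txnrd1. Prdx6 had no entry. Capitals mark TGACNNNGC, the core of the antioxidant response element, or TGAGNNNGC, the same core with G in place of its C, on either strand.
Srxn1, chr2:152105344-152105503, plus strand: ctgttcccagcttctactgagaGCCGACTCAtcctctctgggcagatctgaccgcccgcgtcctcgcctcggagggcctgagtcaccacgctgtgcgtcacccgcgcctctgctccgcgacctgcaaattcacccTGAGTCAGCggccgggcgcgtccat
Txnrd1, its second start, chr10:82859086-82859145, plus strand: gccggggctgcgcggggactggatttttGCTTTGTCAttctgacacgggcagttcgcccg
Prdx1, chr4:116685439-116685498, plus strand: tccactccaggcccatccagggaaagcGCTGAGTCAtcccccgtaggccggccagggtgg

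Srxn1 held TGAGNNNGC at 158 and 45 bases before its start and TGACNNNGC at 28 bases from the start, outside the stretch printed. Prdx1 held TGACNNNGC at 133 bases before its start, and Txnrd1 at 92 bases before its second start. Txn2 held TGAGNNNGC at 187 bases before its start, and Prdx1 at 15 bases from its start. Over all 32817 distinct windows, 12.4% held TGACNNNGC and 17.7% held TGAGNNNGC. The AP-1 element TGAGTCA, present in 5.2% of windows, overlapped the Srxn1 match at 45 bases and the Prdx1 match at 133 bases, and stood alone at 102 bases in Srxn1 and 237 bases in Prdx1. No window of the 9 genes held TGATGNAA, an element read by ATF4 with C/EBP factors, which 3.97% of all windows held. A match of letters is a description and not a binding site.

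**Figure D1:**
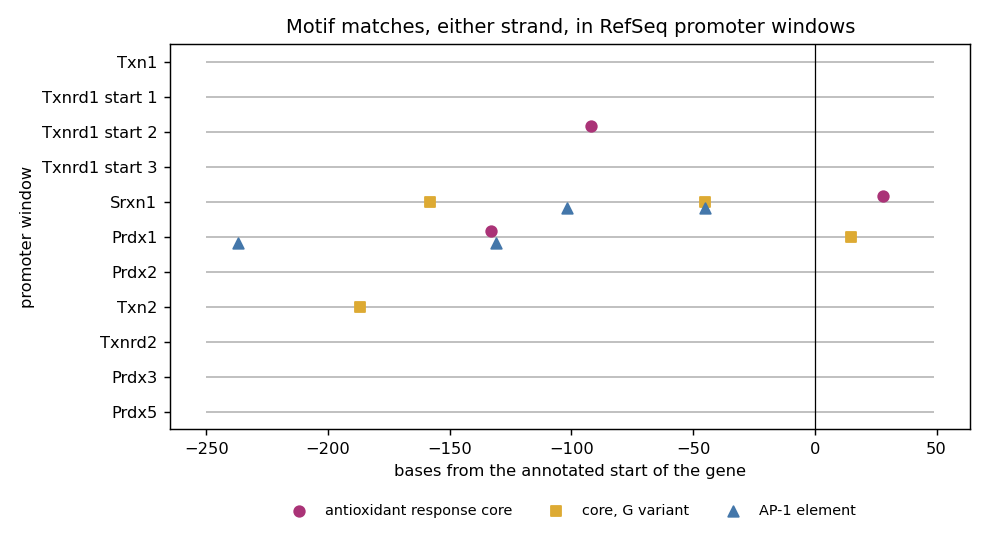
Motif matches along the RefSeq promoter windows of 9 genes (x axis, bases from the annotated start; y axis, window; circles and squares, the antioxidant response core and its variant; triangles, the AP-1 element). Srxn1 and Prdx1 carry the most matches, and the windows of Txn1, Txnrd2, Prdx2, Prdx3 and Prdx5 carry none.

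Values below are normalised signals scaled to the depth of each library, and log2 fold changes are KO over WT on log2(value + 1), a scale that shrinks the change of weakly expressed genes. The libraries held 20243772 to 30263201 reads in the listed genes, with no difference in depth found between genotypes (two-sided exact permutation p = 0.343), and 3 reads correspond to a value of 0.117 to 0.178. Tfam was 26.1, 35.2, 30.3 and 29.7 in WT pools 1 to 4 and 4.52, 5.08, 4.29 and 3.52 in KO pools 1 to 4. Of 10 alveolar macrophage markers, Itgax and Car4 rose, Fabp1, Siglecf, Ear2 and Cidec fell, and Chil3, Marco, Mrc1 and Pparg did not pass; Chil3 was at 23530 in WT and 27810 in KO, and Siglecf at 501 and 194. WT pool 4 and KO pool 4 stood apart from the others on the second principal component (25.6 and 14.1, the other pools lying between -15.4 and 4.9).

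Of the 10 genes, 5 rose in KO and 1 fell (limma, Benjamini-Hochberg adjusted p under 0.05 over all tested genes). Among all 12163 genes tested, 38.7% passed, with 18.7% higher and 20.0% lower in KO. The changes were largest for Srxn1, Txnrd1 and Txn1, smaller for Txnrd2 and Prdx1, and Prdx5 was the gene that fell. The median log2 fold change of the 10 genes was 0.22, beside -0.0063 for all tested genes. WT and KO pools were fully separate for 6 of the genes, all higher in KO, as they were for 37.7% of all tested genes, 18.1% higher and 19.6% lower in KO. In sorted bulk cells, a change in the mix of cells and a change in RNA per cell cannot be told apart.

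**Figure D2:**
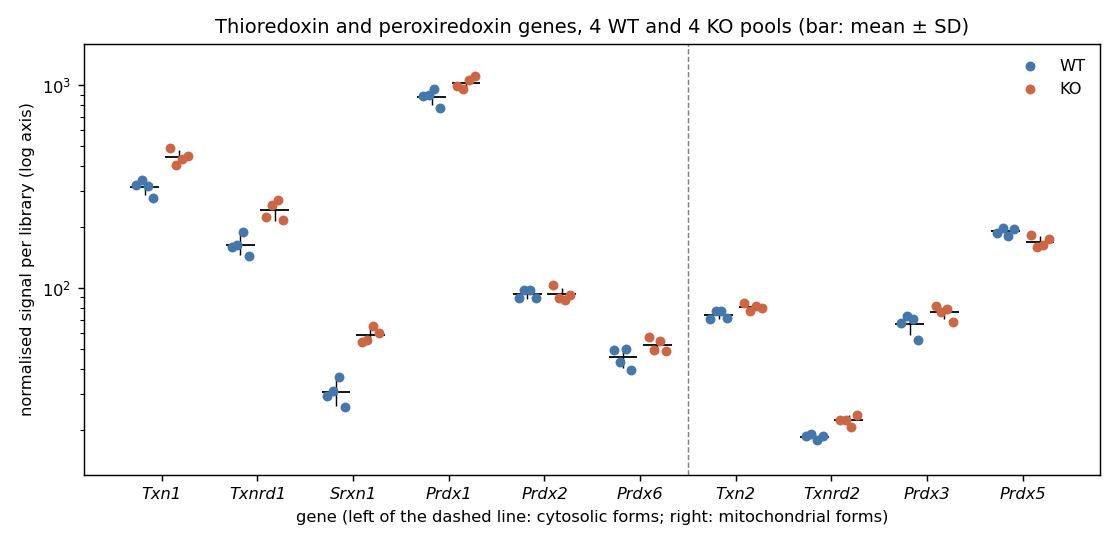
Normalised signal of each gene (y axis, log scale) in every library, with 4 WT pools in blue and 4 KO pools in orange, bars showing mean ± SD. Cytosolic forms stand left of the dashed line; Srxn1, Txnrd1 and Txn1 show a clear gap between the groups, and Prdx2 shows none.

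Txn1, the cytosolic thioredoxin (ENSMUSG00000028367, GRCm38 chromosome 4, 57943373 to 57956411), had values of 323, 340, 318 and 278 in WT pools 1 to 4. In KO pools 1 to 4 it had 492, 407, 433 and 447. Every KO pool lay above every WT pool. The mean went from 315 ± 26.2 to 445 ± 35.6 (SD, n = 4), a log2 fold change of 0.50 (standard error 0.077, and adjusted p = 0.000728 by limma). Txnrd1, the cytosolic reductase that recharges Txn1 (ENSMUSG00000020250, chromosome 10, 82833951 to 82897712), was 159, 163, 189 and 145 in WT. It was 223, 257, 271 and 216 in KO. The groups again did not overlap, and WT pool 3 and KO pool 3 were each the highest of their genotype. Txnrd1 rose from 164 ± 18.2 to 242 ± 26.6 (log2 fold change 0.56 with a standard error of 0.096, and adjusted p = 0.0014 by limma).

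The mitochondrial partners had smaller differences. Txn2, the mitochondrial thioredoxin (ENSMUSG00000005354, chromosome 15, 77915047 to 77929006), was 70.6, 76.9, 77.4 and 70.8 in WT. It was 84.2, 77.5, 81.6 and 79.8 in KO. The KO values lay just above the WT values, but the difference did not pass the test: 73.9 ± 3.72 against 80.8 ± 2.82, log2 difference 0.13 with a 95% interval of 0.0051 to 0.25 (limma adjusted p = 0.0938). Txnrd2, the mitochondrial reductase (ENSMUSG00000075704, chromosome 16, 18426384 to 18479073), was 18.6, 19.1, 17.8 and 18.6 in WT. It was 22.3, 22.4, 20.6 and 23.8 in KO. It was the gene with the tightest WT values relative to its mean and had no overlap between groups. Txnrd2 rose from 18.5 ± 0.551 to 22.25 ± 1.32 (log2 fold change 0.25 with a standard error of 0.066, and adjusted p = 0.0136 by limma).

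Srxn1, the sulfiredoxin that repairs overoxidised typical 2-Cys peroxiredoxins and whose promoter is shown above (ENSMUSG00000032802, chromosome 2, 152105516 to 152111376), changed most among the 10 genes. Its values were 29.4, 31.2, 36.55 and 25.8 in WT pools 1 to 4. In KO pools 1 to 4 they were 54.1, 55.4, 65.1 and 60.2. The lowest KO pool stood well above the highest WT pool. The mean rose from 30.8 ± 4.47 to 58.7 ± 4.99, a ratio of 1.91 (log2 fold change 0.92 with a 95% interval of 0.69 to 1.15, and adjusted p = 0.000112 by limma). Leaving out any single library kept the call of Srxn1.

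Among the peroxiredoxins, Prdx1 rose modestly, Prdx5 fell modestly and the other 3 did not pass the test. Prdx1, a typical 2-Cys peroxiredoxin of the cytosol (ENSMUSG00000028691, chromosome 4, 116685544 to 116700822), was 884, 900.4, 958 and 770 in WT. It was 989.5, 959.8, 1061 and 1113 in KO. The groups did not overlap, though WT pool 3 and KO pool 2 nearly met. Prdx1 went from 878 ± 78.9 to 1031 ± 69.4 (log2 fold change 0.23 with a standard error of 0.077, and adjusted p = 0.0364 by limma). The limma call was lost without WT pool 1 (adjusted p = 0.0693), 2 (0.0621) or 4 (0.0677), without KO pool 1 (0.051), 3 (0.0922) or 4 (0.0809), under quantile normalisation (0.274, log2 0.11) and without the variance trend (0.0569). Without both replicate 4 libraries the log2 difference was 0.13 (limma adjusted p = 0.0995).

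Prdx2, the other typical cytosolic 2-Cys form (ENSMUSG00000005161, chromosome 8, 84969587 to 84974834), was 89.2, 98.1, 98.4 and 89.6 in WT. It was 103, 89.1, 87.7 and 93 in KO. The groups overlapped fully, and KO pool 1 held the highest value of all. The log2 difference was -0.0095 with a 95% interval of -0.16 to 0.14 (limma adjusted p = 0.926). Prdx2 is abundant in red blood cells. Of 4 measured hemoglobin genes 0 passed the test, and their summed level was 25.3 to 60.7 in WT and 12.9 to 68 in KO.

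Prdx6, a 1-Cys peroxiredoxin that also has phospholipase activity and is known for surfactant lipid turnover in lung (ENSMUSG00000026701, chromosome 1, 161240112 to 161251219), was 49.45, 43.25, 50.3 and 39.6 in WT. It was 57.3, 49.7, 54.6 and 48.7 in KO. The ranges overlapped, yet within each replicate number the KO pool was the higher. The log2 difference of Prdx6 was 0.20 with a 95% interval of 0.0025 to 0.40 (limma adjusted p = 0.102), and it passed with the replicate number as a block (adjusted p = 0.0153) and with library quality weights (0.0445). Lung epithelium also expresses Prdx6. Of its 9 marker genes 7 were measured and 0 rose. Epcam fell from 19.5 ± 1.77 to 2.05 ± 0.816, and the other 6, Sftpc among them, did not pass. Their sum was 164 to 251 in WT and 192.5 to 246 in KO. By mean its largest part was Cdh1, at 100.5 in WT and 127 in KO. Sftpc ranged more widely, from 15.6 to 75.9 over WT pools and from 25.3 to 61.4 over KO pools. Whether the RNA of Cdh1 and Epcam came from epithelium or from the sorted macrophages was not tested, so the sum is no measure of epithelium alone. The part of epithelial RNA in the Prdx6 values was not tested.

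Prdx3, the typical 2-Cys peroxiredoxin of the mitochondrial matrix (ENSMUSG00000024997, chromosome 19, 60864051 to 60874556), was 67, 72.9, 70.2 and 55.7 in WT. It was 81.4, 76.1, 78.4 and 68.2 in KO. Pool 4 was the lowest of both genotypes, and KO pool 4 fell within the WT range. The log2 difference was 0.20 with a 95% interval of -0.0067 to 0.40 (limma adjusted p = 0.117). With the replicate number as a block the adjusted p was 0.021, and without both replicate 4 libraries it was 0.0421.

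Prdx5, an atypical 2-Cys peroxiredoxin (ENSMUSG00000024953, chromosome 19, 6906697 to 6910106), was 187, 198, 181 and 195 in WT. It was 182, 159, 163 and 174 in KO. KO pool 1 lay just above the lowest WT pool, and within each replicate number the KO pool was the lower. Prdx5 fell from 190.3 ± 7.73 to 169 ± 10.6 (log2 fold change -0.17 with a standard error of 0.057, and adjusted p = 0.0417 by limma). The limma call was lost without WT pool 1 (adjusted p = 0.0696), 2 (0.116) or 4 (0.0783) and without KO pool 2 (0.105) or 3 (0.111), under median centring (0.0587), under quantile normalisation (0.0553), without the variance trend (0.0725) and without both replicate 4 libraries (0.0682).

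**Figure D3:**
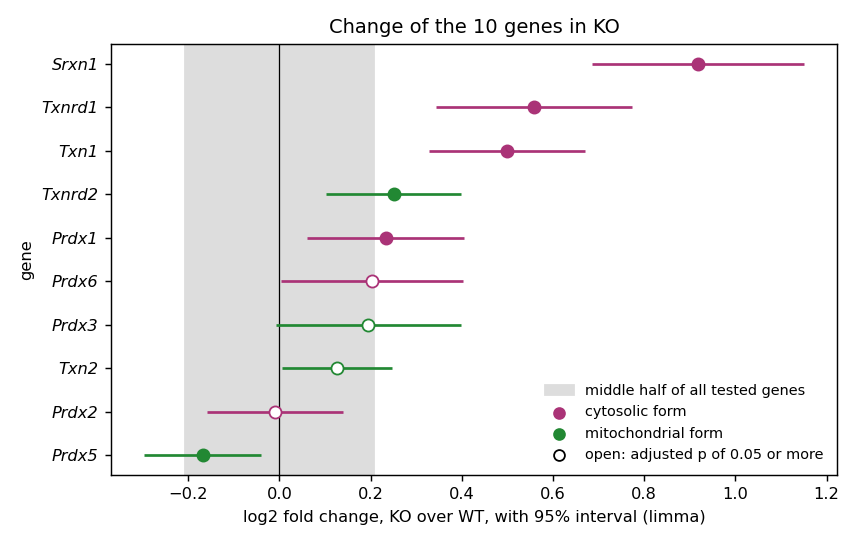
Log2 fold change of each gene, KO over WT (x axis), with its 95% interval from limma; filled points have an adjusted p under 0.05, and the grey band spans the 25th to the 75th percentile of all tested genes, -0.21 to 0.21. The points of Srxn1, Txnrd1 and Txn1 and their intervals lie to the right of the band, and Prdx5 is the called gene on the left.

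Some of these values can be touched by sequence copies or overlapping genes. In GENCODE M21, transcripts of Prdx1, Prdx2, Prdx6 and Txn1 matched other genes or processed pseudogenes at 88.2% to 98.3% identity over 309 to 1444 bases (Gm21399 for Prdx1 at 98.3%, Tdpx-ps1 for Prdx2 at 96.3%, Txn-ps1 for Txn1 at 95.8%, Prdx6b for Prdx6 at 90.1%). Srxn1 matched the long noncoding AC115692.1 at 88.6% over 297 bases on the opposite strand. None of these copies had a row of its own in the table. Prdx5 shares 360 bases with Trmt112 on the opposite strand, and Prdx2 shares 154 with Rnaseh2a and 176 with Junb. The strand setting of the counting is not given in the sources used here, so reads of these stretches may not be assigned surely.

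Cytosolic and mitochondrial forms were then set against each other. Among 6 cytosolic genes 4 rose and 0 fell. Among 4 mitochondrial genes 1 rose and 1 fell. Over all tested genes 18.7% rose and 20.0% fell. The calls of Prdx1 and Prdx5, which are in these counts, were lost under several settings, as given above. The median log2 fold change was 0.37 for the cytosolic and 0.16 for the mitochondrial genes. For 3 pairs the difference of log2(value + 1) was taken within each library, and KO was compared with WT by a two-sided exact permutation test, for which 0.0286 is the smallest p possible. Txn1 minus Txn2 was 2.18, 2.13, 2.02 and 1.96 in WT pools 1 to 4 and 2.53, 2.38, 2.39 and 2.47 in KO pools 1 to 4. The groups did not overlap, and the Txn1 pair differed by 0.37 (SE 0.061, exact permutation p = 0.0286, 0.0857 after Benjamini-Hochberg adjustment over the 3 pairs).

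Txnrd1 minus Txnrd2 was 3.03, 3.03, 3.34 and 2.90 in WT and 3.27, 3.46, 3.66 and 3.13 in KO. These ranges overlapped, with the KO pool higher within each of the 4 replicate numbers. The reductase pair differed by 0.31 (SE 0.15, exact permutation p = 0.0857, adjusted 0.129). Prdx1 minus Prdx3 was 3.70, 3.61, 3.75 and 3.77 in WT and 3.59, 3.64, 3.74 and 4.01 in KO. KO pool 4 stood above the rest, and the other KO pools lay within or just below the WT range. The peroxiredoxin pair differed by 0.038 (SE 0.10, exact permutation p = 0.8, adjusted 0.8), and Prdx1 against Prdx3 gave -0.051 without KO pool 4. With 4 pools a group and 3 pairs, 1 pair at the smallest p of this exact test cannot go below 0.0857 after adjustment. The exact permutation test thus could not have called the Txn1 pair alone.

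**Figure D4:**
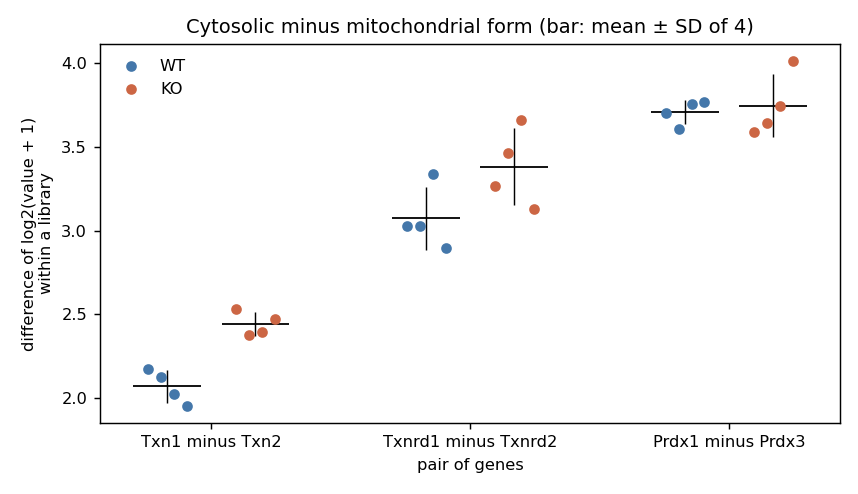
Cytosolic minus mitochondrial form for 3 gene pairs, as the difference of log2(value + 1) within each library (y axis), with 4 WT pools in blue, 4 KO pools in orange and bars for mean ± SD. The KO points of Txn1 minus Txn2 (2.38 to 2.53) lie above the WT points (1.96 to 2.18), and the other pairs overlap.

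Levels were compared between genes per kilobase of the annotated principal transcript, since longer transcripts yield more reads; the transcripts in use in these cells are not known. In WT, Prdx1 was the highest at 554 ± 49.7 per kilobase, then Txn1 at 299 ± 25 and Prdx5 at 151 ± 6.12. Prdx2 followed at 60.7 ± 3.31. Txnrd1 (49.3 ± 5.48), Prdx3 (45 ± 5.12) and Txn2 (44.2 ± 2.22) could not be ordered beyond their spread. Prdx6 (19.1 ± 2.15), Srxn1 (10.9 ± 1.59) and Txnrd2 (7.75 ± 0.231) were the lowest. In KO the order at the top was the same, from Prdx1 at 650.2 ± 43.8 to Txn1 at 423 ± 33.8 and Prdx5 at 134 ± 8.37. Txnrd1 at 72.75 ± 7.99 per kilobase then stood above Prdx2 at 60.4 ± 4.61, though the pools of the genes overlapped, and Srxn1 at 20.9 ± 1.77 reached the level of Prdx6 at 22 ± 1.71.

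Summed per kilobase, the 6 cytosolic genes were at 993 ± 81.1 in WT and 1249 ± 55.8 in KO, and the 4 mitochondrial genes at 248 ± 8.62 in WT and 243 ± 11.1 in KO. The mitochondrial share of the sum was 18.7% to 21.6% over WT and 15.7% to 16.9% over KO. These shares are descriptions of the RNA of 10 chosen genes, and Prdx1 and Txn1 make up most of the cytosolic sum. Prdx5 makes up most of the mitochondrial sum, at 151 per kilobase in WT and 134 in KO. The other mitochondrial genes had higher means in KO: Txn2 44.2 and 48.3, Prdx3 45 and 51.4, Txnrd2 7.75 and 9.31 in WT and KO.

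The genes around the system moved in both directions, as did all tested genes. Of 19 other thioredoxin-fold and partner genes, 9 passed the test (47.4%), 6 of them higher and 3 lower in KO. The list's median log2 difference was 0.093. Beside this list and those below, 38.7% of all tested genes passed, 18.7% higher and 20.0% lower in KO. Txnip, which binds thioredoxin and inhibits it, was 719 to 1249 in WT and 104 to 184 in KO (log2 fold change -2.87 with a standard error of 0.21, and adjusted p = 1.01e-05 by limma). Map3k5, the stress kinase ASK1 that reduced thioredoxin holds inactive, fell from 138 ± 7.14 to 78.6 ± 3.03. Txndc5, a protein disulfide isomerase of the endoplasmic reticulum, fell from 117 ± 9.66 to 77.5 ± 3.67. Nxn, a thioredoxin relative at a low level, rose from 3.18 ± 0.152 to 5.24 ± 0.395. Prdx4, the peroxiredoxin of the endoplasmic reticulum, overlapped between groups at 25.4 ± 4.11 and 22.2 ± 2.29 (limma adjusted p = 0.278, and 0.0397 without WT pool 4).

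Among 4 glutaredoxins, which reduce disulfides with glutathione in place of thioredoxin reductase, 1 rose and 2 fell. Glrx3 rose from 83.6 ± 3.54 to 99.4 ± 1.94, Glrx fell from 77.2 ± 3.44 to 63.8 ± 4.17, and Glrx5, the mitochondrial form that serves iron-sulfur clusters, fell from 31.7 ± 3.49 to 24.9 ± 3.94. The Glrx5 call had a limma adjusted p of 0.0443 and was lost without the variance trend (0.057), without WT pool 1 (0.109), 2 (0.115) or 3 (0.0729) and without KO pool 2 (0.111), 3 (0.0827) or 4 (0.0853). None of the 4 methionine sulfoxide reductases, which depend on thioredoxin for turnover, passed the test, and their median log2 fold change was 0.083. Of 3 ribonucleotide reductase genes, whose enzyme takes electrons from thioredoxin or glutaredoxin to make deoxyribonucleotides, Rrm1 fell from 101 ± 19.4 to 54 ± 1.55 and Rrm2 from 79.6 ± 20.5 to 20.1 ± 4.15. Rrm2b, the form that is not tied to the cell cycle, was 34.6 ± 1.97 and 35.5 ± 2.53 and did not pass.

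Of 3 sestrin genes, named for stress responses and once proposed to help restore peroxiredoxins, Sesn2 rose from 21.8 ± 1.29 to 46.9 ± 16.1 and Sesn3 fell, from 5.91 to 10 in WT to 3.99 to 5.80 in KO. Sesn2 varied widely within KO, from 26.5 to 64.5. Sesn3 lost its limma call without WT pool 1 (adjusted p = 0.0656) or 2 (0.0577) and without KO pool 2 (0.0626). Of 6 genes that make selenocysteine or insert it into proteins such as the thioredoxin reductases, 1 rose, Trnau1ap, from 27.3 ± 1.23 to 33 ± 1.81, and 5 did not pass.

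NRF2 itself is encoded by Nfe2l2, whose level was 202.5 ± 22.3 in WT and 207 ± 23.4 in KO (log2 difference 0.032, 95% interval -0.18 to 0.24). Keap1, which holds NRF2 back, was 41.6 ± 1.59 and 39.9 ± 2.93 (log2 difference -0.06, 95% interval -0.21 to 0.086). Among the 7 genes of NRF2 and its regulators, 3 rose and 1 fell, and the 3 were the small Maf proteins, partners of NRF2 on DNA. Mafg rose from 55.3 ± 7.02 to 101 ± 6.84 (log2 fold change 0.86, and adjusted p = 7.44e-05 by limma), Mafk from 39.1 ± 5.29 to 50.6 ± 3.24, and Maff from 65.5 ± 12.4 to 92.8 ± 12.9. The call of Maff was lost without KO pool 1 (limma adjusted p = 0.0586) or 3 (0.061). Cul3, the ubiquitin ligase that works with Keap1, fell from 133 ± 7.29 to 117 ± 6.16 (limma adjusted p = 0.0312). That call was lost under median centring (0.0668), without the variance trend (0.0546), without WT pool 1 (0.0841), 2 (0.06) or 3 (0.0587) and without KO pool 1 (0.0813), 3 (0.0592) or 4 (0.0635).

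Of 12 other known NRF2 targets 11 rose and 0 fell, with a median log2 fold change of 0.91. Among all tested genes 18.7% rose and 20.0% fell. The list of targets was chosen with earlier results of these data known, so its count is not independent evidence of a direction. Nqo1 (0.457 to 1.47 in WT, 2.19 to 4.16 in KO) and Osgin1 (0.317 to 1.09 and 1.67 to 2.72) are in the count. Both met the low-value filter only with their KO pools, so their rise adds no support. The ferritin light chain Ftl1 rose from 3715 ± 232 to 7189 ± 408, and Gstm1, a glutathione transferase, Slc7a11, the cystine transporter, and Fth1, the ferritin heavy chain, had log2 fold changes of 1.61, 2.86 and 1.20. Under quantile normalisation the value of Fth1 was 0.081 (limma adjusted p = 0.346). Srxn1, also a known NRF2 target, had a log2 fold change of 0.92 beside 0.95 for Ftl1, and under quantile normalisation 0.93 beside 0.63.

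NADPH, the electron source of both reductases, comes from different enzymes in cytosol and mitochondria. Of 4 cytosolic suppliers 1 rose and 2 fell. Idh1 fell from 433 ± 27.5 to 330 ± 21.7, and G6pdx, the entry enzyme of the pentose phosphate pathway, from 174 ± 7.44 to 155 ± 7.99. The G6pdx call (limma adjusted p = 0.0399) was lost under median centring (0.091), under quantile normalisation (0.0525), without the variance trend (0.071), without both replicate 4 libraries (0.0748), without WT pool 2 (0.0661), 3 (0.0893) or 4 (0.0855) and without KO pool 1 (0.0997) or 3 (0.0688). The malic enzyme Me1 rose from 0.956 ± 0.537 to 3.37 ± 1.16. Me1 ranged from 0.583 to 1.73 over WT pools and from 2.27 to 4.85 over KO pools. It met the low-value filter only with its KO pools, so its rise is a description only. On the mitochondrial side, Me2 fell from 214 ± 37 to 152 ± 19.8. The transhydrogenase Nnt, which has 2 rows in the table, fell in both, from 31.1 ± 1.93 to 22.2 ± 2.27 and from 43.4 ± 4.67 to 32.9 ± 1.99. Idh2 was 74.6 ± 6.99 and 85.1 ± 6.11 and did not pass, and Me3 was not among the genes of the expression table.

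In the parallel glutathione system, 2 of 5 genes rose and 2 fell. Gpx4, which removes lipid peroxides, rose from 175 ± 12.2 to 246 ± 18 and the synthase Gss from 12.9 ± 1.05 to 16.4 ± 1.31. Gpx1, the main soluble glutathione peroxidase, fell from 494 ± 28.8 to 337 ± 44.3. Gsr, the glutathione reductase and counterpart of Txnrd1, fell from 326.5 ± 7.5 to 282 ± 18.5 (log2 fold change -0.21, and adjusted p = 0.0125 by limma). Txnrd1 and Gsr therefore changed in opposite directions; the difference between them was not tested.

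Markers of other cells were read in the same libraries. Of 6 measured markers of monocytes or interstitial macrophages 5 rose, and their summed level was 36.7 to 62.2 in WT and 68.2 to 191 in KO. The sum of 10 alveolar macrophage markers, most of it Chil3, was 31800 to 34260 in WT and 33080 to 38480 in KO, and within it Fabp1 fell from 180 to 11.25 and Ear2 from 2245 to 477. Of 5 endothelial markers Vwf rose (103 to 287). Cldn5, Pecam1, Cdh5 and Kdr did not pass the test, with means of 3.33, 11.7, 13.2 and 6.74 in WT and 3.68, 11.8, 12.45 and 5.55 in KO. The summed level of the 5 was 85 to 208.5 in WT and 250.3 to 356 in KO. Cdh5 ranged from 5.81 to 32.2 over WT pools and from 9.86 to 16.8 over KO pools. Whether endothelial RNA was carried into the CD45+ sort was not tested. Sums over the measured neutrophil markers (80.9 to 123 and 93.2 to 138, with Cxcr2 higher and Csf3r, S100a9 and Mmp9 lower in KO) and dendritic cell markers (14.3 to 20.6 and 15.4 to 28.2) overlapped, and of 7 lymphocyte markers only Ms4a1 was measured, at 0.769 to 1.47 in WT and 0.436 to 1.14 in KO. The part of the monocyte markers in the changes of the 10 genes was not tested.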

How the data were processed

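The authors deposited a table of normalised signal (1 value for each gene in each library) made, per the submitters' processing notes, on GRCm38 with RSEM 1.3.1, cutadapt 1.7.1, CASAVA 1.8.2 and limma in roles that the notes do not order. For aligner, annotation and strand setting nothing is given in the sources used here. From the values, each is a whole number of reads plus 0.5, multiplied by a library factor (whole for 100% of values at a tolerance of 0.01). Sums of these reads gave the depth. Because of the added 0.5, the values were kept as normalised signal and no count model was run.

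Rows reaching 1 in 4 or more libraries (12163 of 12367) were tested as log2(value + 1) with limma 3.58.1 in R 4.3.3: two-sided moderated tests with a variance trend, called at a p under 0.05 after Benjamini-Hochberg adjustment over all tested genes. Groups and replicate numbers came from sample titles. Deviations from group means correlated at 0.29 to 0.43 between same-numbered libraries and at -0.37 to 0.092 between others, so the numbers pair the libraries, as read from the data and not from the labels. The main limma fit and the exact tests of pairs left this pairing out. The fit with the replicate number as a block was run as an alternative, and Prdx3 and Prdx6 passed only with it or some other alternatives.

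The 10 genes and all lists were chosen with earlier results of these data known. The rule named all 10 genes, Tfam, Txnip, Prdx4, Nfe2l2 and Keap1, and up to 4 called genes per list by lowest p; Rrm2b, Idh2 and single marker genes were named after their values were seen. Gene positions and transcript lengths are from GENCODE M21 (GRCm38), and copies were searched with blastn at 85% identity over at least 150 bases. Promoter sequences are from RefSeq (GRCm38.p6).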

Additional observations from a re-analysis of the deposited data

How the results depend on the processing

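The 10 genes were recomputed under quantile normalisation or median centring, with another filter (none, or 8) or pseudocount (0.25 or 5), with library quality or voom weights, without the variance trend, with the replicate block, at an adjusted p of 0.01, without each library and without both replicate 4 libraries. Srxn1, Txn1 and Txnrd1 kept their direction and call in all 20 settings, and Txnrd2 in 19, the exception being the 0.01 threshold (adjusted p = 0.0136). The 5 genes called higher were 3 at 0.01, 4 under quantile normalisation and without the variance trend, 6 under median centring and with library quality weights, and 4 to 5 without a single library. The 1 called lower, Prdx5, was 0 at 0.01, under quantile normalisation, median centring, no variance trend and without both replicate 4 libraries, and 0 to 1 without a single library. At 0.01 all genes called higher were 1513 and all genes called lower 1543. With the replicate block 7 genes were higher and 1 lower, since Prdx3 and Prdx6 passed, and no other call among the 10 changed. Txn2 passed under median centring (adjusted p = 0.0429). The sign of Prdx2 turned under quantile normalisation (0.0054), median centring (0.013) and without a single library (-0.060 to 0.019, turning without WT replicate 2, 0.012, or 3, 0.014, or KO replicate 2, 0.011, or 3, 0.019). Prdx1 against Prdx3 turned without both replicate 4 libraries (-0.031), and ranged from -0.051 to 0.090 without a single library. With libraries left out, or with the replicate block, the exact tests of pairs cannot reach 0.05, so their values alone were compared. For 34 other named genes the alternatives were added after seeing the data: of 677 results 635 kept direction and call, 39 lost the call, 1 gained it and 2 turned, both of Nfe2l2 (-0.00041 without WT replicate 1 and -0.040 without KO replicate 4, with up to 0.11 without WT replicate 4). The cause of these shifts was not tested. The planned count-model alternatives were not run, because of the 0.5 added to each read number. At these depths 3 reads equal at most 0.178, and the lowest value of any of the 10 genes was 17.8 (Txnrd2).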

Other observations

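WT pool 4 held the lowest WT value of 6 of the 10 genes: Txn1, Txnrd1, Srxn1, Prdx1, Prdx3 and Prdx6. It was not the lowest for Txn2, Txnrd2, Prdx2 or Prdx5. Without both replicate 4 libraries the log2 fold changes of Srxn1, Txnrd1 and Txn1 were 0.83, 0.55 and 0.44, and limma called each of them. Within replicate numbers, the KO pool was the higher for 8 of the 10 genes in 4 of 4 numbers, the exceptions being Prdx2 (2 of 4) and Prdx5 (0 of 4). The share of all tested genes higher in 4 of 4 numbers was not computed, so this count is a description only. Groups fully separate and higher in KO, which gives 4 of 4 by itself, held for 18.1% of all tested genes. Among the peroxiredoxins alone, the highest KO value of Prdx1 came from KO pool 4 (1113), while that of Prdx2, Prdx3, Prdx5 and Prdx6 came from KO pool 1 (103, 81.4, 182 and 57.3).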
